A study of Homo sapiens with 12 samples.

Results

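The 51 genes described here encode the proton pump of the lysosome and the proteins that work inside or in the wall of that organelle, in HEK293T cells transfected with an sgRNA with or without the Cas9 nuclease. They were taken from the 26485 genes listed in both deposited tables by their symbols: all genes named ATP6V or ATP6AP, without read-through, antisense and pseudogene entries, and 26 listed lysosomal genes. Of the 51, 25 are subunits or accessory proteins of the pump, 13 of them in its V1 sector and 9 in its V0 sector. Another 23 are other lysosomal proteins, 18 enzymes or lumenal proteins and 5 membrane proteins, and 3 are the regulators TFEB and TFE3 and the cargo receptor SQSTM1. HEK293T cells descend from embryonic human kidney and contain the SV40 large T antigen, and all results come from this line.

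The cells received 2 µg of plasmid DNA per well with polyethylenimine, and polyA RNA was sequenced in 12 libraries, 3 in each of 4 groups. The plasmids were of a PX330-GFP type and carried the 6T sgRNA with Cas9, the 6T sgRNA without Cas9, the Luciferase sgRNA with Cas9 or the Luciferase sgRNA without Cas9. Luciferase is absent from human cells, and the labels do not say what 6T stands for. Each sgRNA has 1 deposited table with a condition A and a condition B, and the headers leave unsaid which of the pair was the Cas9 condition and whether the tables used the same order. For this reason condition B is set against condition A throughout, and the read counts of the single libraries were recovered from the deposited means. Libraries are named by sgRNA, condition and a number that only orders them by size factor, the authors' scaling of a library. No label says whether the libraries of a group came from separate cultures, so p-values measure the spread between these libraries, which may be technical.

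The vacuolar-type ATPase is a rotary motor. Its V1 sector hydrolyses ATP in the cytosol, a central shaft passes the rotation to a ring of membrane subunits in the V0 sector, and protons cross the membrane between that ring and subunit a. The acid that it makes lets hydrolases in the lumen break down proteins, lipids, glycans and glycogen. TFEB and TFE3 are related transcription factors that enter the nucleus when the kinase mTORC1 is inactive at the lysosome, and they bind E-box motifs in the promoters of many genes for the pump and for lysosomal proteins. SQSTM1, also called p62, carries ubiquitin-tagged cargo to autophagosomes, which fuse with lysosomes.

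Promoters bear on the regulators in this list, so they were read for the E-box CACGTG and for its longer form TCACGTGA. Each of these motifs is its own reverse complement, so a match counts for both strands, and the longer form contains the shorter. RefSeq promoters of build GRCh38.p14, from 250 bases before to 50 bases after a start site, were at hand for 38 of the 51 genes. CACGTG was present in 10 of the 38 (26.3%), against 7.26% of all 35116 promoters in the table and 12.6% of the 10420 genes that had a promoter and a mean normalized count of 10 or more. TCACGTGA was present in 6 of the 38 (15.8%), against 0.980% of all promoters and 2.12% of the genes with a promoter and a mean of 10 or more. These 6 were ATP6V0D1, ATP6V1G1, CTSA, GAA, LAMP1 and MCOLN1. The promoters of TFEB, TFE3 and SQSTM1 held no CACGTG in this window. A match is a description of the letters, not of a bound site. Of these 6, a pump gene, an enzyme gene and both membrane protein genes are shown, LAMP1 with 6 copies of CACGTG, 5′ to 3′ with each CACGTG in capitals.
ATP6V1G1, chr9:114587519-114587818, plus strand: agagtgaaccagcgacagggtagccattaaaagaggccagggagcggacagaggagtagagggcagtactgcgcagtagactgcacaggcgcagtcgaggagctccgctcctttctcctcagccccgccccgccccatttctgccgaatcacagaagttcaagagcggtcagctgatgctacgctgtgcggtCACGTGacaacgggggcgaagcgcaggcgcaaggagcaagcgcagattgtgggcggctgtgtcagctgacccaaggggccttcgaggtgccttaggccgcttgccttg
GAA, chr17:80101331-80101630, plus strand: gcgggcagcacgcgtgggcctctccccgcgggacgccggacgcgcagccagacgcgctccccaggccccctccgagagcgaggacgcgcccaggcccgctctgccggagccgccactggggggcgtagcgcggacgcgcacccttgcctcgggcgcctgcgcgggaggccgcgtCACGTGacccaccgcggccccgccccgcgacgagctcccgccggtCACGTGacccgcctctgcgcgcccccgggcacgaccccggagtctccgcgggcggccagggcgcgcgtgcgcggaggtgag
MCOLN1, chr19:7522374-7522673, plus strand: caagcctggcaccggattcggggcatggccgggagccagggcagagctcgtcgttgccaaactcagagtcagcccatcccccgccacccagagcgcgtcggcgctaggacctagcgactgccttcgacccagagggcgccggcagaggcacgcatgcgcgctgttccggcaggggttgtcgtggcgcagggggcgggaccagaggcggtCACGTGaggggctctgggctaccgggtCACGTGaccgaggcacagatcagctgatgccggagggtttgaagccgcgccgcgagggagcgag
LAMP1, chr13:113296989-113297288, plus strand: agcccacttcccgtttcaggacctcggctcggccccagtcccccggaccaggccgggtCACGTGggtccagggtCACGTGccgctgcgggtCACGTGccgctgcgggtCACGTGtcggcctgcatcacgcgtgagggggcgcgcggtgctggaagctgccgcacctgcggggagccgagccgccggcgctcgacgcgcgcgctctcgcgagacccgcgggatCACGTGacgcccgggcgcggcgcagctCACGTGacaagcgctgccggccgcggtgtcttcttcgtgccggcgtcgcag
The copy nearest to the start site began 58 bases before it in ATP6V1G1, 31 before it in GAA, 14 before it in MCOLN1 and 1 before it in LAMP1. ATP6V1G1 encodes a stalk subunit of V1, GAA the acid glucosidase that degrades glycogen, MCOLN1 a calcium channel of the lysosome and LAMP1 an abundant glycoprotein of its membrane.

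The libraries held from 5871468 to 8288886 reads, except the 3 of Luciferase condition B with 19398920 to 38082717. All 10 marker genes of HEK293T had a mean normalized count of at least 96.1, and of 10 markers of other cell types only COL1A1 had a mean of 10 or more. Library A1 of the Luciferase sgRNA stood apart from the other 11 libraries. Its genes with AT-rich transcripts were low and those with GC-rich transcripts high: between genes under 50% GC and the rest, the median log2 deviation from the mean of 12 libraries differed by −0.55, against −0.17 to 0.31 in the other libraries. As these are bulk samples, fewer cells with a transcript and less RNA per cell cannot be told apart.

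Normalized reads, which are read counts divided by the size factor of the library, placed 48 of the 51 genes at a mean of 10 or more over the 12 libraries. ATP6V1G3, a stalk paralog known from kidney, had 0 reads in all 12 libraries, which allows a mean of up to 0.20 normalized reads by counting error alone. ATP6V0A4, the subunit a paralog of the renal intercalated cell, had 3 reads in all. ATP6V0D2, the subunit d paralog of osteoclasts and kidney, had 56 reads. Of the 48, 14 have a GENCODE span, introns included, that overlaps the span of another gene with a mean of 10 or more, 12 of them on the opposite strand. Overlap of exons was not computed, so how far their counts are uncertain is not known.

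**Figure D1:**
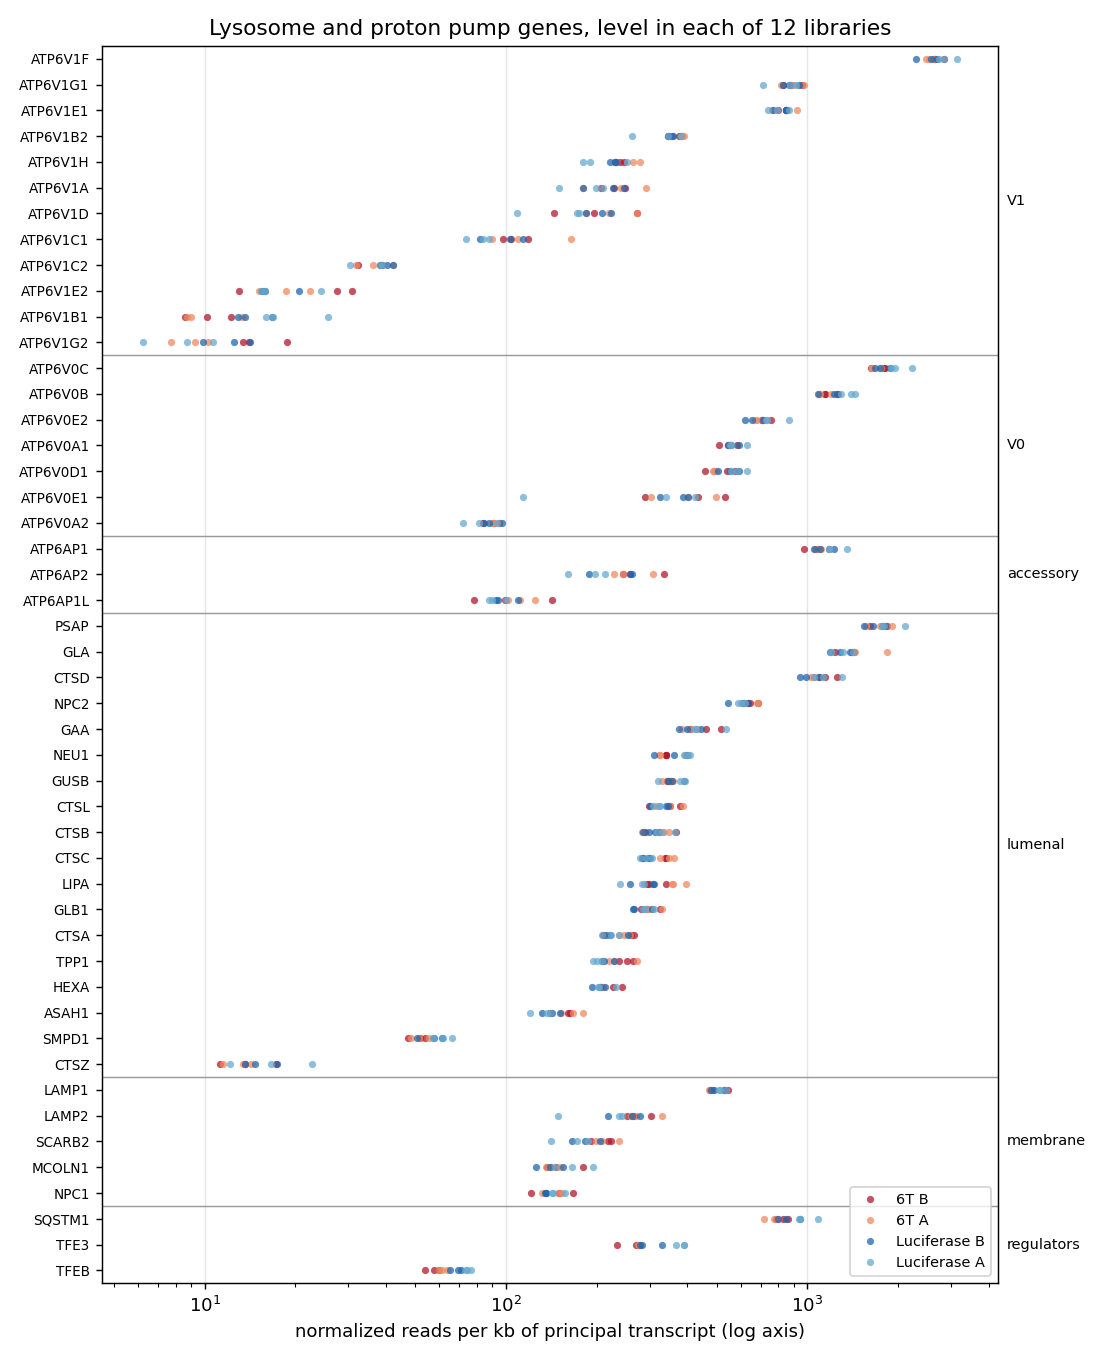
Normalized reads per kb of the principal transcript (log axis) of the 48 genes with a mean of 10 or more, with a point for each of the 12 libraries, coloured by sgRNA and condition, and genes grouped by class. Within most genes the 12 points lie close together beside the differences between genes, which run from 11.3 for ATP6V1G2 to 2669 for ATP6V1F, and ATP6V0E1 has a single low point in Luciferase condition A.

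Levels between genes were compared as normalized reads per kb of the principal GENCODE transcript, averaged over 12 libraries with their SD. The median level was 233 per kb over the 25 pump genes and 310 per kb over the 23 other lysosomal genes. Over 12575 genes with a mean of 10 or more it was 97.4 per kb. Only 22 of the 25 pump genes had such a mean, against all 23 of the others, which lowers the pump median. ATP6V1F, a subunit of the V1 shaft, had the highest level with 2669 ± 212 per kb (SD, n = 12 libraries). ATP6V0C, which forms most of the proton-carrying ring, followed with 1803 ± 171 per kb, and PSAP, the precursor of the saposins that present lipids to hydrolases, had 1758 ± 157 per kb. These levels of ATP6V0C and PSAP differed by less than their SD. GLA, the galactosidase that is deficient in Fabry disease, had 1378 ± 172 per kb, ATP6V0B, a further ring subunit, had 1219 ± 115 per kb, ATP6AP1, which helps to assemble the pump, had 1130 ± 99.8 per kb, and the aspartic protease gene CTSD had 1094 ± 103 per kb. ATP6AP1 likewise differed from ATP6V0B, and CTSD from ATP6AP1, by less than their SD. At the low end stood the paralogs ATP6V1E2 with 19.6 per kb, ATP6V1B1 with 13.6 per kb and ATP6V1G2 with 11.3 per kb, and among the enzymes CTSZ, a cysteine protease, with 14.8 per kb. Of the membrane proteins, LAMP1 had 504 per kb, LAMP2 256 per kb, SCARB2, the receptor that carries glucocerebrosidase to lysosomes, 194 per kb, MCOLN1 151 per kb and the cholesterol exporter NPC1 143 per kb. Parts of this order rest on the length used. Per kb of all exons joined, ATP6V1F stayed highest with 2382, but PSAP with 1559 stood above ATP6V0C with 1415. CTSD with 743 then stood above ATP6AP1 with 486 and ATP6V0B with 448. SCARB2 with 48.1 fell below MCOLN1 with 79.7 and NPC1 with 73.1.

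The highest of 12 libraries exceeded the lowest by 1.37-fold in each of ATP6V1F, ATP6V0C and PSAP, close to the median of 1.39-fold over the 48 genes. ATP6V1F had 1872, 1846 and 2002 normalized reads in 6T condition B and 1746, 1847 and 1778 in 6T condition A. It had 1898, 1807 and 1620 in Luciferase condition B and 2212, 1918 and 2003 in Luciferase condition A. ATP6V0C had 2104, 1906 and 2122 in 6T condition B, 1929, 2067 and 1928 in 6T condition A, 2216, 2052 and 1974 in Luciferase condition B, and 2617, 2224 and 2289 in Luciferase condition A. In both genes the highest of 12 libraries was Luciferase A1. PSAP had from 4629 to 5270 in 6T condition B, from 4492 to 5465 in 6T condition A, from 4423 to 5212 in Luciferase condition B and from 5065 to 6055 in Luciferase condition A. LAMP1 was the steadiest of the 48 genes, with a highest library 1.15-fold above the lowest. ATP6V1A, the catalytic subunit of V1, had 1141, 1045 and 949 in 6T condition B, 1109, 1340 and 827 in 6T condition A, 824, 1040 and 1132 in Luciferase condition B and 691, 960 and 914 in Luciferase condition A. Its transcript is AT-rich, with 42.5% GC, and its lowest library was again Luciferase A1. ATP6AP2, the prorenin receptor that also binds the pump, had 783, 602 and 573 in 6T condition B and 571, 720 and 533 in 6T condition A. It had 442, 602 and 613 in Luciferase condition B and 375, 498 and 461 in Luciferase condition A. Its conditions overlapped under each sgRNA. Luciferase condition A lay wholly below both 6T conditions, and how many of all genes did so was not counted. The transcript of ATP6AP2 is AT-rich too, with 41.3% GC, and its lowest library was Luciferase A1.

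Several pump subunits are encoded by paralogs, and most of these sets were dominated by a single gene (the plot of paralog shares). Of the summed level of the subunit a genes, which anchor the pump in particular organelles, ATP6V0A1 gave 78.6%, ATP6V0A2 12.4%, TCIRG1 9.0% and ATP6V0A4 0.01%. ATP6V0A1 had 546 per kb in 6T condition B, 552 per kb in 6T condition A, 566 per kb in Luciferase condition B and 581 per kb in Luciferase condition A. Its share of the subunit lay between 76.6% and 80.0% in every library. These values are per kb of principal transcript. Per kb of all exons joined, ATP6V0A1 gave 65.5%, ATP6V0A2 17.9% and TCIRG1 16.6%. Subunit d came to 99.7% from ATP6V0D1, which couples the shaft to the ring. In V1, ATP6V1B2 gave 96.2% of the nucleotide-binding subunit B against 3.79% from ATP6V1B1, the paralog of kidney and inner ear. ATP6V1E1 gave 97.7% of the stalk subunit E against 2.31% from ATP6V1E2, and ATP6V1G1 gave 98.7% of the stalk subunit G against 1.27% from ATP6V1G2, a paralog known from brain. Subunit C, which joins V1 to V0, was more even, with 72.7% from ATP6V1C1 and 27.3% from ATP6V1C2. The small V0 subunit e came to 66.2% from ATP6V0E2 and 33.8% from ATP6V0E1 per kb of principal transcript, but this order turned round per kb of all exons joined, with 36.3% from ATP6V0E2 and 63.7% from ATP6V0E1, so it rests on the transcript assumed.

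**Figure D2:**
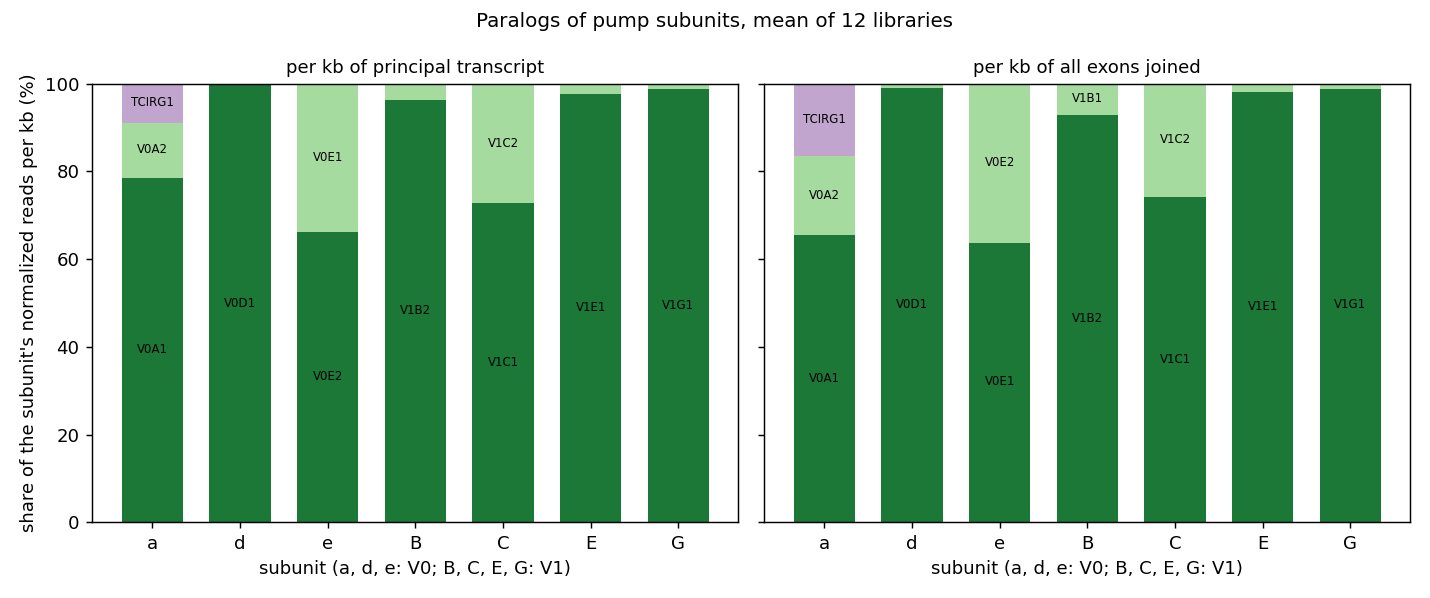
Share of each paralog (%) in the summed normalized reads per kb of its subunit, as the mean of 12 libraries, on the principal transcript (left) and on all exons joined (right). A single gene gives most of subunits d, B, E and G on both lengths, while the larger paralog of subunit e changes from ATP6V0E2 on the left to ATP6V0E1 on the right.

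Across the 4 group means the levels were narrow. The highest of the 4 means exceeded the lowest by 1.05-fold in GUSB, a glucuronidase often used as a stable transcript, and by 1.88-fold in ATP6V1B1, with a median of 1.20-fold over 48 genes. Summed over the 22 pump genes with a mean of 10 or more, normalized reads were 19300 ± 804 in 6T condition B, 19173 ± 1076 in 6T condition A, 18975 ± 484 in Luciferase condition B and 19507 ± 88.1 in Luciferase condition A (SD, n = 3 libraries each). Summed over the 23 other lysosomal genes they were 25060 ± 543 in 6T condition B, 24963 ± 995 in 6T condition A, 23328 ± 987 in Luciferase condition B and 24608 ± 872 in Luciferase condition A (SD, n = 3 libraries each). The pump sums of the 6T conditions overlapped, while the 3 libraries of Luciferase condition B, from 18417 to 19287, lay just below those of condition A, from 19433 to 19605.

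Under the 6T sgRNA, 0 of the 48 genes passed an adjusted p under 0.05 between condition B and condition A in the authors' deposited DESeq test, where 0.0416% of 19246 genes passed. In the authors' deposited table the adjusted p was 1 for all 48, and 0 of them had an unadjusted p under 0.05, against 0.868% of all genes. In limma on the recovered reads 0 of 13997 genes passed, and 2 of the 48 had an unadjusted p under 0.05, against 2.35% of all genes. The authors' log2 fold change was above 0 in 22 of the 48 genes and below 0 in 26, with a median of −0.01, against −0.03 over all genes with a mean of 10 or more. The median was −0.01 for the pump genes and −0.01 for the other lysosomal genes, a difference of less than 0.01 where the spread between libraries gave an SD of 0.05. The standard error of the limma log2 difference had a median of 0.11 over the 48 genes and ran from 0.08 for ATP6V1F to 0.33 for ATP6V1E2, and this sets the size of difference that 3 libraries against 3 could show.

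In 5 of the 48 genes the 3 libraries of condition B lay wholly above or below those of condition A, against 7.88% of all genes. Condition B was the higher in 2 of them, against 4.19% of all genes, and the lower in 3, against 3.69%. ATP6V1G2 had 21.2, 22.3 and 29.8 normalized reads in condition B, against 12.3, 16.2 and 14.7 in condition A. All libraries of condition B were higher, at a level close to the filter, with an authors' log2 fold change of 0.76 (unadjusted p = 0.0826). CTSD had 2316, 2426 and 2664 normalized reads in condition B, against 2177, 2236 and 2233 in condition A, with an authors' log2 fold change of 0.16. LIPA, the acid lipase of the lysosome, had 943, 827 and 817 normalized reads in condition B, against 989, 993 and 1097 in condition A. Its authors' log2 fold change was −0.25 (unadjusted p = 0.0896). The GENCODE span of LIPA overlaps IFIT1, IFIT2 and IFIT3, interferon-induced genes on the other strand, and in the authors' deposited table IFIT2 averaged 6.92 in condition B and 60.6 in condition A with an adjusted p of 4.59e-09, against an adjusted p of 1 for LIPA. Under the Luciferase sgRNA the authors' deposited table gave IFIT2 a log2 value of −1.41 at an adjusted p of 0.854 and LIPA a log2 value of 0.11. The sources do not say whether counting used strand, and the part of IFIT reads in the value of LIPA was not tested. TFEB had 141, 127 and 136 in condition B, against 142, 150 and 145 in condition A, and TFE3 had 798, 920 and 936 in condition B, against 940, 937 and 944 in condition A. Both were lower in every library of condition B by little, with authors' log2 fold changes of −0.11 and −0.09.

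Under the Luciferase sgRNA, 0 of the 48 genes passed the authors' deposited DESeq test between condition B and condition A, where 0 of 20194 genes passed, that is 0% of them. At an unadjusted p under 0.05 the authors' test gave 1 of the 48, TFE3, against 1.22% of all genes. In limma 0 of 14016 genes passed, and 3 of the 48 had an unadjusted p under 0.05, against 9.6% of all genes. TFE3 had 1128, 953 and 962 normalized reads in condition B, against 1333, 1248 and 1330 in condition A. Every library of condition B was lower, with an authors' log2 fold change of −0.36 (unadjusted p = 0.0386) and a limma log2 difference of −0.37 ± 0.09 (SE) with a Benjamini-Hochberg adjusted p of 0.455. It was −0.35 without library A1 of condition A, with an adjusted p of 0.761.

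Within the pump the sectors leaned apart under this sgRNA. The authors' log2 fold change was above 0 in 9 of 12 V1 genes, with a median of 0.12, and below 0 in 5 of 7 V0 genes, with a median of −0.10. Over all 22 pump genes the median was 0.08, against −0.06 over the 23 other lysosomal genes and −0.01 over all genes, and the difference of 0.14 compares with an SD of 0.08 from the spread between libraries. None of these genes passed the test. Without library A1 the median over pump genes was 0.02 above that over other lysosomal genes in limma. In that fit 6 of 12 V1 genes were above 0, with a median of 0.02, and 5 of 7 V0 genes stayed below 0, with a median of −0.05.

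ATP6V0E1 varied most between the 12 libraries, by 4.66-fold, with 553, 575 and 466 normalized reads in condition B, against 164, 606 and 487 in condition A. The value of 164 belonged to library A1. The limma log2 difference of ATP6V0E1 was 0.54 ± 0.41 (SE) with all libraries and −0.04 ± 0.13 (SE) without A1. ATP6V1D, a subunit of the V1 shaft, had 339, 410 and 385 in condition B, against 200, 323 and 318 in condition A, and here all libraries of condition B were higher. Its limma log2 difference was 0.46 with an adjusted p of 0.455, and 0.23 without A1. LAMP2, a membrane glycoprotein needed for a selective form of autophagy, had 881, 1054 and 1124 in condition B, against 601, 959 and 977 in condition A, with overlapping groups. In 10 of the 48 genes the conditions did not overlap, against 16% of all genes. Condition B was the higher in 2 of them, against 6.45% of all genes, and the lower in 8, against 9.55%. The 8 were ATP6V0B, ATP6V0C, ATP6V0E2, ATP6V1F, CTSB, NPC1, TFEB and TFE3, with authors' log2 fold changes from −0.36 to −0.12.

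The log2 fold changes varied with the base composition of the transcripts. Under the Luciferase sgRNA, 17 of the 21 genes whose transcript had under 50% GC had a log2 fold change above 0, with a median of 0.11, and 23 of the 27 from 50% had one below 0, with a median of −0.17. Spearman's rho between the authors' log2 fold change and GC content was −0.83 over 48 genes and −0.71 over 13331 genes. Under the 6T sgRNA rho was 0.55 over 48 genes and 0.42 over 13299 genes, with the opposite sign. These points share their libraries, so rho describes these libraries only. V1 genes had a median GC content of 45.8%, V0 genes of 56.8%, other lysosomal genes of 51.5% and the 3 regulators of 59.0%. After a correction of each library for its trend with GC content, rho was 0.03 over the 48 genes under the Luciferase sgRNA and the pump genes stood 0.04 above the other lysosomal genes. In limma after this correction 6 of 12 V1 genes were above 0, with a median of −0.03, and 4 of 7 V0 genes below 0, with a median of −0.002. Whether base composition gave the lean of V1 and V0 was not tested beyond this correction.

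**Figure D3:**
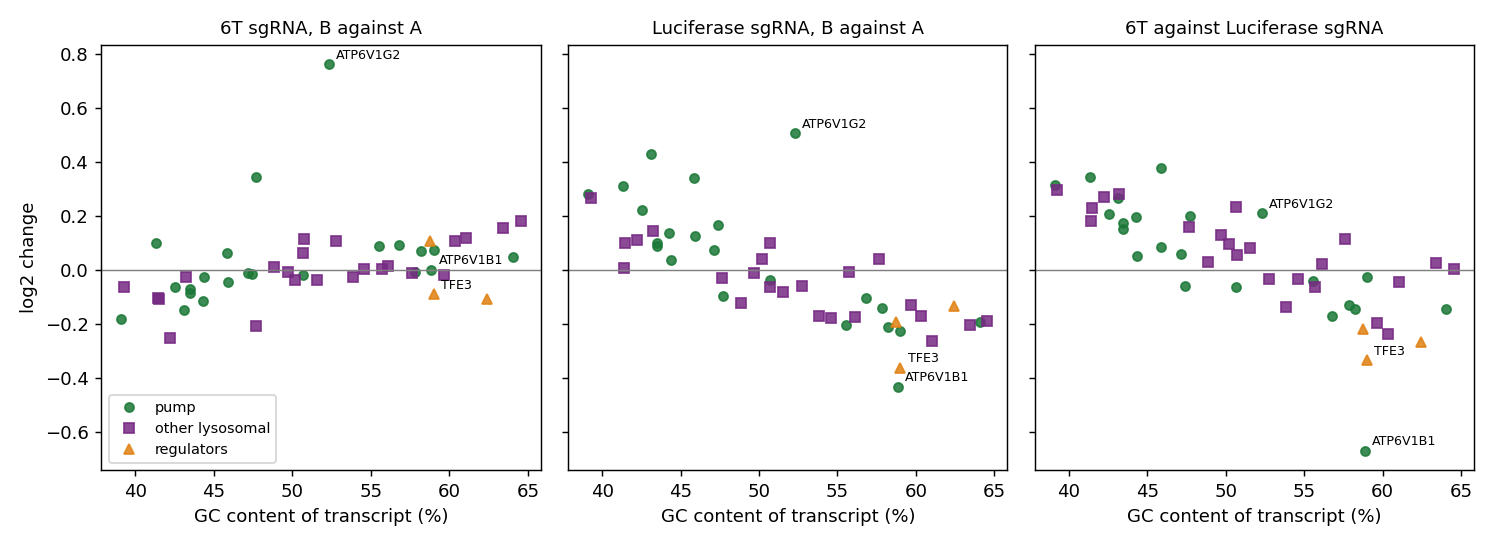
Log2 change of 48 genes against the GC content of their transcript (%), for condition B against A under the 6T sgRNA, condition B against A under the Luciferase sgRNA, and 6T against Luciferase. Points slope upward in the first panel (rho 0.55) and downward in the others (rho −0.83 and −0.82), with pump and other lysosomal genes on both sides of 0 in each panel.

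**Figure D4:**
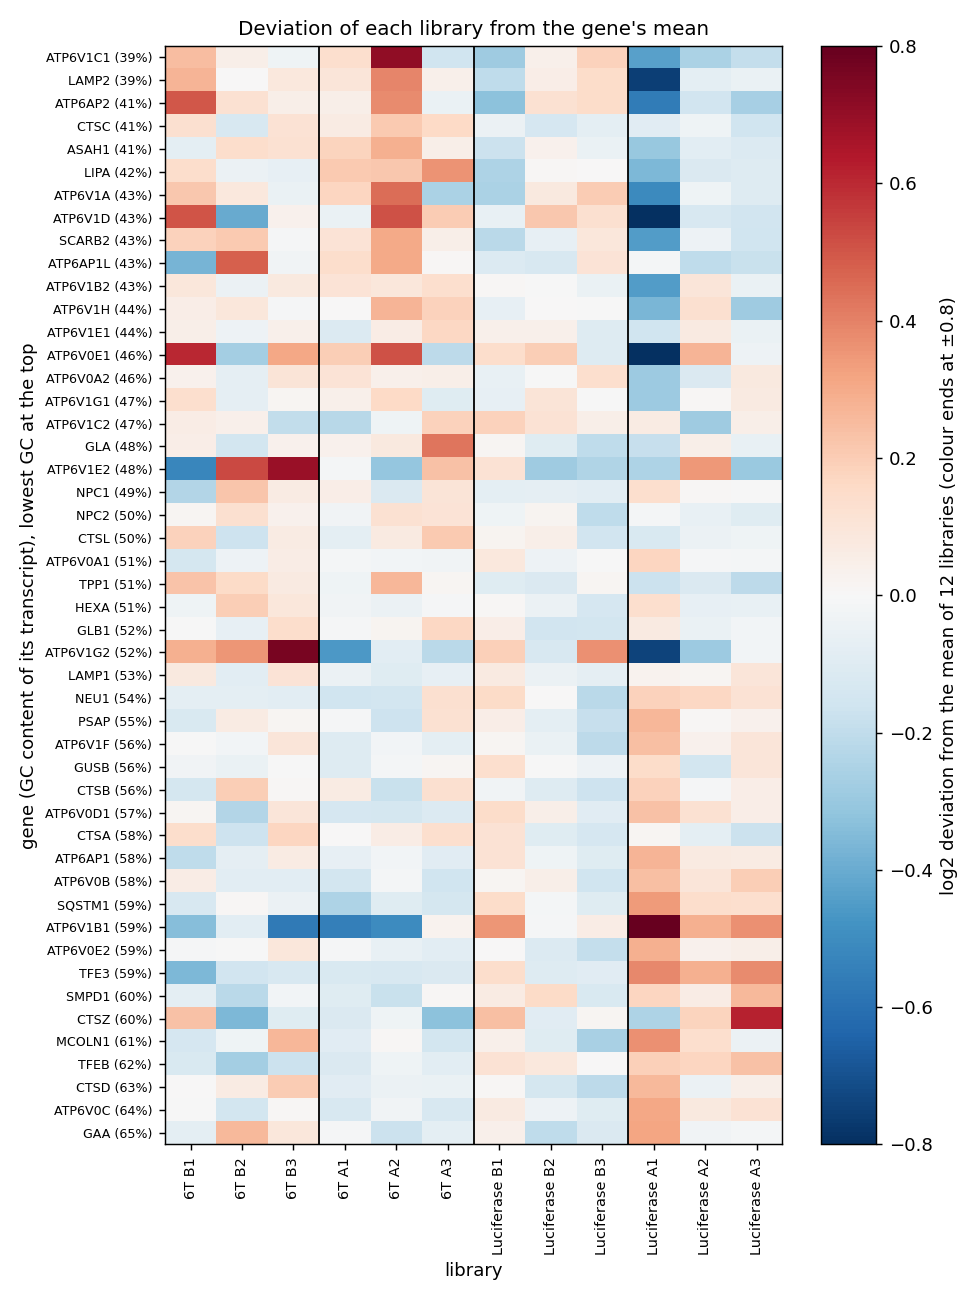
Log2 deviation of each library from the gene's mean over 12 libraries, for 48 genes ordered by GC content from the lowest at the top, with libraries in columns. Library A1 of the Luciferase sgRNA is low at the top and high at the bottom, the opposite of library A2 of the 6T sgRNA.

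The change between conditions was compared between the sgRNAs by the interaction term of limma over all 12 libraries. This term takes conditions A and B to mean the same under both sgRNAs, which the headers leave unsaid. No gene passed, 0 of the 48 and 0 of 14004, that is 0% of all genes, and the smallest adjusted p of the 48 was 0.485. At an unadjusted p under 0.05 there were 7 of the 48, against 9.41% of all genes. In 6 of them the difference, 6T change minus Luciferase change, was above 0, with values between 0.28 and 0.36 on the log2 scale: CTSD, GAA, ATP6V0E2, ATP6V0B, ATP6V1F and SQSTM1. In LIPA it was −0.36 ± 0.15 (SE). These 6 genes have transcripts from 55.5% to 64.6% GC and LIPA one of 42.2%, and after the GC correction 0 of the 48 had an unadjusted p under 0.05. Without library A1 of the Luciferase sgRNA 1 of the 48 had.

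Between sgRNAs, averaged over both conditions, limma called 134 of 14004 genes (0.957%), 21 of them higher and 113 of them (0.807% of all) lower with 6T. Of the 48 genes 1 was called, TFE3. It fell by 0.33 ± 0.06 on the log2 scale (SE, limma with Benjamini-Hochberg adjusted p = 0.0350) and was lower in 6 of 6 libraries with 6T than in any with Luciferase. The library values are those given above: with 6T they lie between 798 and 944, and with Luciferase between 953 and 1333, so that the highest 6T library and the lowest Luciferase library nearly touch. The call of TFE3 depended on which libraries were fitted. It was lost in 11 of 12 fits that left out a single library and held only without Luciferase A2. Over these 12 fits its limma adjusted p ran from 0.0429 to 0.121, while the log2 difference stayed between −0.35 and −0.29. The same fits called from 11 to 318 of all genes. Within condition A, where limma called 0.0643% of all genes, the log2 difference was −0.47 ± 0.09 (SE) with an adjusted p of 0.0520. Within condition B, where it called 0%, the difference was −0.20 ± 0.09 (SE) with an adjusted p of 0.923. At an unadjusted p under 0.05 there were 19 of the 48 genes within condition A, against 31.4% of all genes, and 4 within condition B, against 5.41%. After the GC correction the log2 difference of TFE3 was −0.23 with an adjusted p of 0.0477.

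The related factor TFEB had values from 127 to 150 normalized reads in the 6 libraries with 6T and from 154 to 181 in the 6 with Luciferase. These groups did not overlap either, as in 2 of the 48 genes against 2.86% of all genes, and in both 6T was the lower, against 1.6%. No gene of the 48 had all libraries with 6T higher, against 1.26%. For TFEB the limma log2 difference was −0.27 ± 0.08 (SE) with an adjusted p of 0.0815. SQSTM1 had 2340, 2569, 2479, 2150, 2386 and 2314 normalized reads with 6T, the 3 of condition B first, against 2832, 2533, 2391, 3240, 2813 and 2810 with Luciferase. Its groups overlapped, and its limma log2 difference was −0.22 ± 0.06 (SE) with an adjusted p of 0.0762. The 2 regulators and the receptor were thus on the same side, and only TFE3 passed the threshold. Without Luciferase A1 the log2 difference was −0.33 for TFE3, −0.27 for TFEB and −0.18 for SQSTM1, with limma adjusted p of 0.0566, 0.118 and 0.128, so that none passed. After the GC correction those of TFEB and SQSTM1 were −0.15 and −0.11. Their transcripts are GC-rich, between 58.8% and 62.4%.

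**Figure D5:**
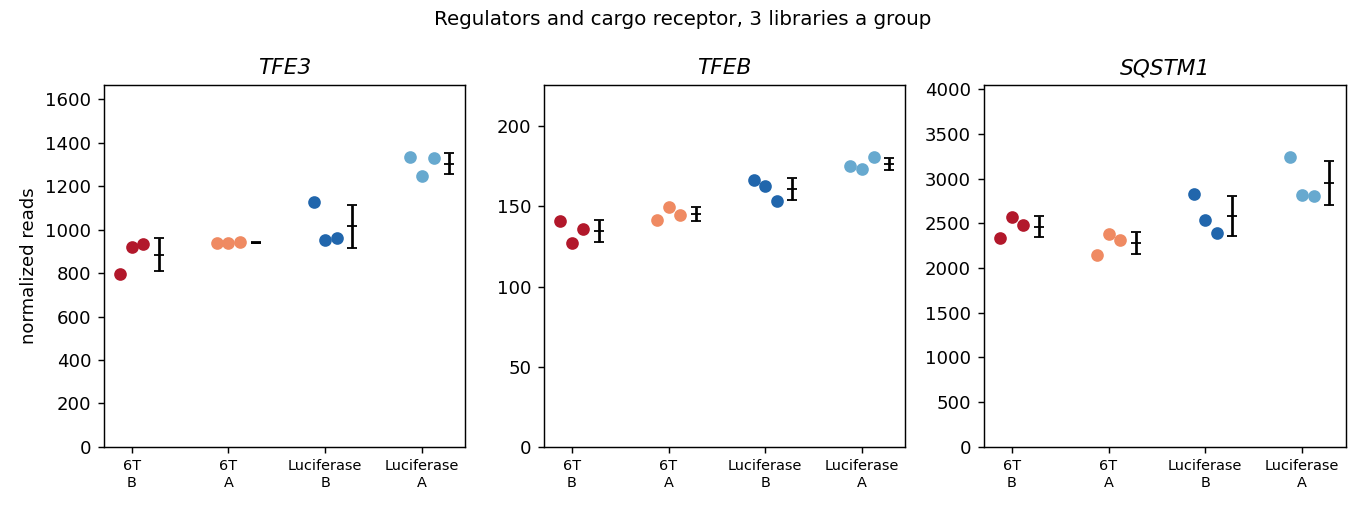
Normalized reads of TFE3, TFEB and SQSTM1 in each of 12 libraries (axes start at 0), with 3 points a group in the order 6T condition B, 6T condition A, Luciferase condition B and Luciferase condition A, and the mean with its SD beside them. TFE3 and TFEB have no 6T point above a Luciferase point, and the Luciferase condition A points are the highest of TFE3.

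Among the pump and the other lysosomal genes 0 of 45 were called between sgRNAs. The limma log2 difference was above 0 in 29 of the 48 genes and below 0 in 19, with a median of 0.05, against 0.01 over all genes. At an unadjusted p under 0.05 there were 16 of the 48 (33.3%), against 23.8% of all genes. Without library A1 of the Luciferase sgRNA there were 11 of the 48 (22.9%), against 19.0% of all genes, and after the GC correction likewise 11 (22.9%), against 19.0%. Of the 22 pump genes 7 were among them with all libraries, 2 without that library and 2 after the correction. Of the 23 other lysosomal genes these counts were 6, 6 and 7. ATP6V1B1 had the largest difference, with 19.7, 23.7, 16.7, 16.9, 17.5 and 25.7 normalized reads with 6T, against 32.5, 25.1, 26.4, 49.6, 30.9 and 32.7 with Luciferase, where the first 3 of each are condition B. Only the highest library with 6T, at 25.7, lay above the lowest with Luciferase, at 25.1, and the log2 difference was −0.67 ± 0.18 (SE) with an adjusted p of 0.0709, and −0.57 without Luciferase A1 with an adjusted p of 0.129. Its span overlaps those of VAX2 and an antisense gene, and whether its few reads are shared with them was not tested. LIPA had from 817 to 1097 normalized reads with 6T and from 666 to 859 with Luciferase, with a log2 difference of 0.27 ± 0.07 (SE) and an adjusted p of 0.0728. TPP1, a tripeptidyl peptidase, had 940, 894, 843, 785, 965 and 812 with 6T, against 750, 739, 811, 712, 739 and 693 with Luciferase. Only library A1 with 6T lay below a library with Luciferase, at 785 against 811, and the log2 difference of TPP1 was 0.23 ± 0.07 (SE) with an adjusted p of 0.0782 and 0.25 after the GC correction. SCARB2 had from 916 to 1136 with 6T and from 676 to 980 with Luciferase, with a log2 difference of 0.28 ± 0.09 (SE) and an adjusted p of 0.0927. Without Luciferase A1 the log2 difference was 0.23 for LIPA, 0.23 for TPP1 and 0.22 for SCARB2, with limma adjusted p from 0.115 to 0.154. After the GC correction that of SCARB2 was 0.12 and that of LIPA 0.09. The pump genes had a median of 0.07 and the other lysosomal genes of 0.06, a difference of 0.02 before rounding of the medians, against an SD of 0.07 between libraries. Without Luciferase A1 these medians were 0.03 and 0.08. After the GC correction they were 0.01, with 13 of 22 pump genes above 0, and 0.07, with 19 of 23 other lysosomal genes above 0. The sgRNA and any difference in handling between its libraries cannot be told apart, and the 3 libraries of Luciferase condition B were deeper than the rest. If the tables order their conditions differently, the values within condition A or B set a group with Cas9 against a group without it.

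Of the 36 genes with a promoter and a mean of 10 or more, the authors' log2 fold changes of the 10 with CACGTG had their median at 0.08 with 6T and at −0.18 with Luciferase, and those of the 26 without had it at −0.02 with either sgRNA. The transcripts of the 10 had a median GC content of 57.9% and those of the 26 of 50.7%. Between sgRNAs the medians were −0.03 with CACGTG and 0.04 without. MCOLN1, with the longer form, had 285, 306, 376, 294, 315 and 283 normalized reads with 6T, against 322, 292, 261, 403, 343 and 303 with Luciferase, each with condition B first. The libraries of both sgRNAs overlap.

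Beyond the 51 genes, 6 further lists of lysosomal and autophagy genes were read, and 0 of their genes with a mean of 10 or more passed the authors' test between conditions under either sgRNA or the interaction test. Of all genes 0.0416% passed with 6T, 0% with Luciferase and 0% in the interaction. Between sgRNAs limma called 2 genes of these lists, where it called 0.957% of all genes. RPTOR, an mTORC1 subunit that recognises substrates of the kinase, fell by 0.39 ± 0.06 on the log2 scale (SE, limma with Benjamini-Hochberg adjusted p = 0.0169). It had 1244, 1251, 1283, 1311, 1378 and 1279 normalized reads with 6T, against 1575, 1429, 1496, 2103, 1701 and 1922 with Luciferase, the 3 of condition B first in each. All 6 libraries with 6T were below all 6 with Luciferase, as in 1.6% of all genes. The call held in 9 of 12 fits without a single library, being lost without 6T A1, Luciferase A3 or Luciferase B1. CALCOCO2, an autophagy receptor for bacteria, rose by 0.55 ± 0.11 on the log2 scale (SE, limma adjusted p = 0.0413), with 1137, 1315, 1102, 1211, 1124 and 1004 normalized reads with 6T, against 870, 930, 927, 494, 883 and 686 with Luciferase. Its libraries did not overlap either, with 6T the higher as in 1.26% of all genes. The call of CALCOCO2 held in only 2 of 12 fits without a single library, those without Luciferase A1 or Luciferase A2. Neither call ended after the GC correction, with adjusted p of 0.0192 for RPTOR and 0.0263 for CALCOCO2.

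By list, limma called 0 of 32 hydrolases and cofactors, 0 of 18 membrane proteins, 0 of 12 sorting factors, 0 of 13 genes for subunit a3 and for pump assembly and regulation, 1 of 15 genes of mTORC1 at the lysosome, and 1 of 22 autophagy genes between sgRNAs. The share called over all genes was 0.957%. TCIRG1, the a3 subunit known from osteoclasts, had a log2 difference of −0.23 with an adjusted p of 0.209. SLC38A9, an arginine sensor of the lysosomal membrane, had 0.51 with an adjusted p of 0.0572, and the kinase gene MTOR had −0.20 with an adjusted p of 0.0996. Under the 6T sgRNA the smallest p of these lists was that of CCDC115, a factor of pump assembly, with an authors' log2 fold change of −0.37 in the authors' deposited table (unadjusted p = 0.0366).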

How the data were processed

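PolyA RNA of HEK293T cells was measured in 12 libraries, 4 groups of 3. The submitters' processing notes name STAR, HTSeq, DESeq and build hg38, without versions. The signal values that the authors deposited are mean counts divided by size factors, for condition A and condition B of each sgRNA. The ratio column is the authors' fold change, B over A, and the log2 column its log2, per the file headers. Each p-value, raw and adjusted, is that of the authors' own DESeq comparison, per the file headers. The tables have 0 samples with columns of their own.

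From the deposited means the whole reads of each library were worked out, with a single solution for 99.64% to 99.75% of genes above 0. Genes left out of the recovery held from 9.12% to 12.3% of reads. The size factors lay within 0.0565% of median-of-ratios factors over 12 libraries, so levels were compared across both tables. limma 3.58.1 in R 4.3.3 was fitted to log2 normalized reads (pseudocount 1) of all genes whose mean was at least 10, with a mean-variance trend, Benjamini-Hochberg adjustment over all genes and two-sided tests. The search and the fit were tested on simulated data. The sgRNAs and their interaction were fitted over all 12 libraries. Lengths, GC content and spans came from GENCODE and promoters from RefSeq. The GC correction removed a lowess trend with a span of 0.3 from each library.

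Named genes were, in each class and comparison, the 3 with the smallest p, all called genes, the 2 with the highest level, the paralogs of the pump and up to 2 by smallest p in each further list; not all are printed, and ATP6V1A was added after its values were seen. The members, lists and tests were chosen with earlier results of these data known. Alternatives were the test, pseudocount, filter, normalization, GC correction, single conditions and leaving out each library.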

Additional observations from a re-analysis of the deposited data

How the results depend on the processing

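Alternatives changed the test, the pseudocount, the low filter, the scaling and the correction for GC content. Those that ran limma for the tests between conditions with another pseudocount, filter, scaling or the GC correction were chosen after seeing the data. No gene of the 48 was called between conditions or in the interaction under any of them. Between sgRNAs the count of called genes was 1 with all libraries, 0 within condition A, 0 within condition B, and from 0 to 1 when each library was left out. Called genes over all genes ranged from 11 to 318 when each library was left out. The median of pump minus other lysosomal genes ran from −0.037 to 0.082 without single libraries under 6T. Under Luciferase it was 0.037 after the GC correction and from 0.023 to 0.21 without single libraries. Between sgRNAs it was 0.12 within condition A, −0.068 within condition B and −0.061 after the GC correction.

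Directions turned for single genes that had passed no test. Without single libraries, the 6T log2 change ran from −0.08 to 0.058 for ATP6AP1 (0.0098 without 6T A2), −0.35 to 0.077 for ATP6AP1L, −0.037 to 0.23 for ATP6AP2, −0.33 to 0.10 for ATP6V1C1, −0.13 to 0.048 for LAMP2 and −0.0073 to 0.19 for MCOLN1. After the GC correction the interaction was −0.030 for ATP6AP1, 0.040 for ATP6AP1L, 0.14 for ATP6AP2, −0.0029 for ATP6V0C, 0.031 for ATP6V1C1, 0.082 for LAMP2 and −0.20 for TFEB, whose range without single libraries was −0.011 to 0.064. LAMP1 between sgRNAs became 0.018 after it. The cause was not tested. No paired analysis was possible because the recovered libraries carry no replicate number. Depth limits the genes under a mean of 10 and the rare paralogs.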
